A study of Homo sapiens with 2 samples.

Results

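Keratins are the intermediate filament proteins of epithelial cells, and 44 keratin genes were measured in HSC-3 cells cultured on top of Myogel and on top of plastic. The members were all genes whose symbol is KRT followed by a number, with or without a letter A to C, which leaves out the keratin-associated proteins of hair. They made up 44 of the 19775 genes with a named probe set and were covered by 56 probe sets. Each gene was represented by its brightest probe set, by mean log2 value over both arrays. HSC-3 is an established, aggressive cell line from a squamous cell carcinoma of the human tongue. On both surfaces the cells carried red fluorescent protein, brought in by a lentivirus with a non-coding control sequence. Myogel is a gelatinous protein extract of human uterine leiomyoma, a benign smooth muscle tumor. For each surface 90000 cells were seeded per well, the RNA of 3 wells was taken the next day and pooled in equal amounts, and 1 Affymetrix Human Genome U133 Plus 2.0 array was hybridised. The comparison asked whether a Myogel coating changes the expressed genes relative to plain plastic. It rests on 1 array per surface, so that no difference below has a replicate check and no p-value is given. The small number of arrays limits how precise any value is. In such pooled RNA, fewer cells that express a gene and less RNA per cell cannot be told apart.

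A keratin filament is built from pairs of a type I and a type II chain, and the human type I genes lie together on chromosome 17 while the type II genes and KRT18 lie on chromosome 12. Which pair a cell makes depends on its kind and its state. Basal cells of stratified epithelium make KRT5 with KRT14 and KRT15, single-layered epithelium makes KRT8 with KRT18 and KRT19, and the lining of the mouth switches to KRT4 and KRT13 as cells leave the basal layer. Cornifying epidermis makes KRT1, KRT2, KRT9 and KRT10, wounded or fast-growing epithelium makes KRT6 proteins with KRT16 and KRT17, and hair shafts and their root sheaths have many keratins of their own. Squamous carcinomas are known for mixing basal, simple and differentiation keratins.

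The values are linear intensities as deposited, with a lowest value of 1 that acts as a floor. Fold change (FC) is Myogel over plastic throughout, and FC 1.5 or more in either direction was the threshold, with FC 1.2 as a second one. The median over all genes of the geometric mean of both arrays was 142 units, which is called the median signal here. The median over genes was 139 units on the Myogel array and 150 units on the plastic array, and the log2 FC had a median of -0.069 over all genes. Probe sets differ in how strongly they bind their target, so the levels below place a gene as bright or dim and no ratio between genes is given. The defining epithelial markers were bright on both arrays, with E-cadherin (CDH1) at 3993 units on Myogel and 4385 units on plastic and EPCAM at 4998 and 4886 units on the same surfaces. Summed markers of other cell types were 1130 units on Myogel and 1126 units on plastic for smooth muscle (7 genes), 719 and 717 units for fibroblasts (7 genes), 317 and 402 units for endothelium (5 genes) and 599 and 605 units for blood (4 genes). CNN1, a smooth muscle marker, was listed at the floor on Myogel and at 17.6 units on plastic. ACTA2 (756 units on Myogel, 703 on plastic) was the brightest smooth muscle gene and COL1A1 (454 and 431 units) the brightest fibroblast gene. PECAM1 (186 and 204 units) was the brightest for endothelium and CD14 (302 and 298 units) for blood. Each of these reached the median signal on both arrays, while most other genes in the sums were dim. The part of these markers in the keratin values was not tested.

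The start sites of many keratin genes share a sequence feature that had no part in how the genes were chosen. It is shown here because, among the bright KRT5, KRT10 and KRT8, only KRT10 holds its exact letters. A window of 250 bases before the start site was given in RefSeq (GRCh38.p14) for 29 of the 44 genes, KRT13, KRT14, KRT15, KRT18 and KRT19 not among them. The letters TATAAA, the core of the TATA box that positions transcription, were looked for on both strands and were found in 16 of the 29 genes, against 13.05% of 27305 genes with such a window. In 14 of them TATAAA lay on the gene's own strand and began 27 to 31 bases before the start, while 2.92% of all genes had it on that strand with its first base 20 to 40 bases before the start. The AP-1 motif TGANTCA was in 0 of the 29 (8.06% of all genes), and the GC box GGGCGG, also on both strands, was in 4 of them (46.2% of all genes). Matches are letters in a window and not proven sites. The last 60 bases before the start are given 5′ to 3′ for the 5 members from 100 units up that have a window and for the 3 brightest hair shaft keratins with one, all on the minus strand, with TATAAA in capitals.
KRT5, basal, chr12:52520395-52520454: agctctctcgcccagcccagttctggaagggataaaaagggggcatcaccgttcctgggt
KRT10, cornifying epidermis, chr17:40822615-40822674: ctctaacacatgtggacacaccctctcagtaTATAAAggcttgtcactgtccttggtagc
KRT8, simple, chr12:52926470-52926529: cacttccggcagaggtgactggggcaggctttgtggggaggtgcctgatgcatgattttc
KRT9, cornifying epidermis, chr17:41572060-41572119: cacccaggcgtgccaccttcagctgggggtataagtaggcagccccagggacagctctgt
KRT75, hair root sheath, chr12:52434372-52434431: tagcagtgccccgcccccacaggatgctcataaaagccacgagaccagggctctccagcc
KRT38, hair shaft, chr17:41440984-41441043: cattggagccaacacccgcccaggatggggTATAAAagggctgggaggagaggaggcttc
KRT36, hair shaft, chr17:41489911-41489970: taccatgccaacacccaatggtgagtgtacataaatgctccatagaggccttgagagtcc
KRT31, hair shaft, chr17:41397609-41397668: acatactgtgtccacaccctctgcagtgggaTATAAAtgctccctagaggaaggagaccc
Among the bright KRT5, KRT10 and KRT8, the exact letters stood in KRT10 alone. KRT38 and KRT31 carried them too, and both were below the median signal on both arrays. Near the same place KRT5 has gataaa, and KRT75 and KRT36 have cataaa, which differ from TATAAA in the first letter only. KRT9 has tataag there, which differs in the last letter only. Such variants were not counted, and whether they act as a TATA box was not tested.

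Most of the measured keratins were dim in these cells, and a small set was among the brightest genes of the array. Of the 44 genes, 7 lay in the top decile of all genes by mean signal and 6 more reached 100 units on at least one surface. The other 31 stayed below 100 units on both, as did 8604 of all 19775 genes. The 7 bright genes were the basal KRT14, KRT5 and KRT15, the simple KRT18, KRT19 and KRT8, and KRT10. Their values ran from 3460 to 18224 units on Myogel and from 3769 to 18856 units on plastic. The decile was taken on the mean over both arrays, so it does not compare the surfaces. Basal and simple pairs were thus bright side by side, while 0 of 12 hair shaft keratins reached the median signal on both arrays. Among all 19775 genes, 9638 reached the median of each array.

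**Figure D1:**
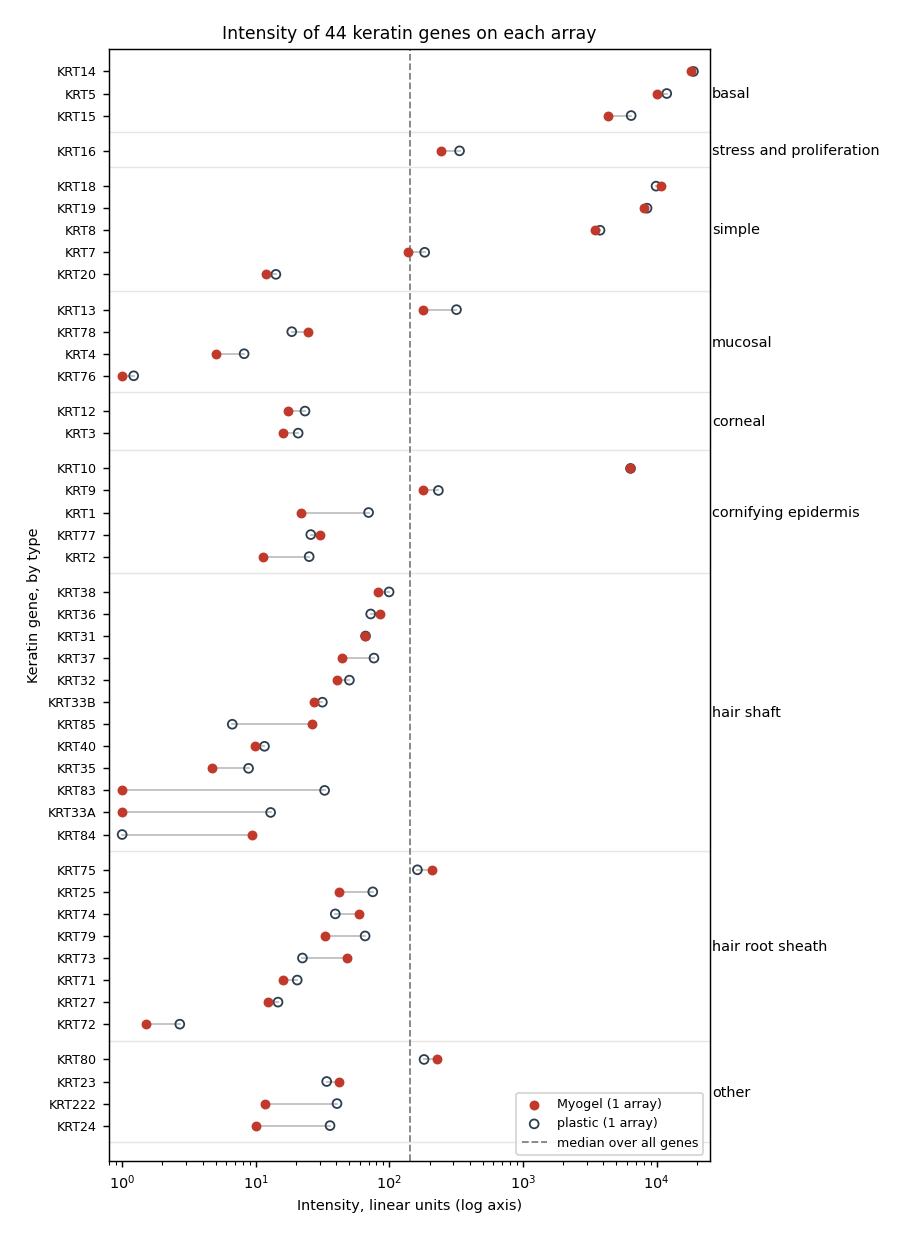
Intensity in linear units (x axis, log scale) of the 44 keratin genes (y axis, grouped by type) on the Myogel array (red points) and the plastic array (open points), with grey lines joining the values of a gene and a dashed line at the median signal of all genes, 142 units. The basal keratins and 3 simple keratins lie far to the right on both arrays, and the hair shaft keratins all lie left of the dashed line.

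Of the basal keratins, KRT15 and KRT5 were lower on Myogel, KRT15 by more. KRT15, a type I keratin of basal cells and of hair follicle stem cells, had 4306 units on Myogel and 6447 units on plastic. This is a log2 FC of -0.58, and at 1.497-fold lower it fell just short of the threshold. Of the 1000 probe sets nearest in mean signal, 95% had a log2 FC between -0.30 and 0.26, so KRT15 was below the range of probe sets as bright as itself. KRT5, the type II partner of both KRT14 and KRT15, had 10125 units on Myogel and 11907 units on plastic, a log2 FC of -0.23 that lay just below the lower end of its range, also -0.23 when rounded. KRT14, the main type I keratin of basal keratinocytes, had 18224 units on Myogel and 18856 units on plastic, a log2 FC of -0.049 inside the range for its signal of -0.23 to 0.14. This log2 FC became 0.058 when the median log2 ratio of all probe sets was set to 0. Each basal keratin is read by 1 probe set, so there was no second probe set against which to check these values.

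The 3 bright simple keratins differed little between the surfaces, and the dimmer KRT7 depended on the probe set. KRT18, the type I chain of single-layered epithelium, had 10845 units on Myogel and 9903 units on plastic. As deposited it was the only one of the 7 bright keratins with a higher value on Myogel, whereas with the median log2 ratio set to 0 KRT14, KRT10 and KRT19 were higher too. Its log2 FC was 0.13, inside the range of -0.23 to 0.14 for its signal. KRT8, its type II partner, had 3460 units on Myogel and 3769 units on plastic, and KRT19, a type I chain of simple and basal cells, had 7982 units on Myogel and 8477 units on plastic. The log2 FC was -0.12 for KRT8 and -0.087 for KRT19, both inside their ranges, and that of KRT19 became 0.020 with the median log2 ratio set to 0. KRT18 and KRT8 are each read by 1 probe set of a kind that may bind several transcripts. KRT7, a type II keratin of glandular and ductal epithelium, was dimmer, with 138 units on Myogel and 184 units on plastic. Its log2 FC of -0.42 became 0.26 without the kinds of probe set that may bind several transcripts, and 0.46 as the mean over its probe sets. KRT20, known from intestinal epithelium, was listed at 12.02 units on Myogel and 14.1 units on plastic.

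Of the epidermal keratins of differentiation, KRT10 was bright, KRT9 lay somewhat above the median signal, and KRT1, KRT2 and KRT77 were dim. KRT10, the type I keratin of the spinous layer, had 6281 units on Myogel and 6377 units on plastic, a log2 FC of -0.022 that became 0.085 with the median log2 ratio set to 0. Log2 FCs of 0.029 and -0.13 came from its 2 dimmer probe sets, and all 3 are of kinds that may bind several transcripts. KRT1, the type II chain with which KRT10 pairs in epidermis, had only 21.6 units on Myogel and 69.9 units on plastic, 3.23-fold lower. Its log2 FC of -1.69 was outside the range of -1.53 to 1.58 for its signal, although both values lay below the median signal. KRT2, a type II keratin of the upper epidermis, was at 11.4 units on Myogel and 25.1 units on plastic, and KRT9, the type I keratin of palms and soles, was at 177 units on Myogel and 233 units on plastic. KRT77, another type II epidermal keratin, was at 30.4 units on Myogel and 25.8 units on plastic.

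KRT13 was the only keratin with FC 1.5 or more among those that reached the median signal. KRT13, the type I keratin of the suprabasal lining of mouth and oesophagus, had 178 units on Myogel and 318 units on plastic, 1.78-fold lower. Its log2 FC of -0.83 was below the range of -0.73 to 0.65 for its signal, and its single probe set is of the kind that may bind several transcripts. KRT4, the type II partner of KRT13 in the mouth, was close to the floor on both surfaces with 5.01 units on Myogel and 8.18 units on plastic. The other mucosal keratins were also dim, KRT78 at 24.5 units on Myogel and 18.6 units on plastic and KRT76, a keratin of the hard palate, at 1.00 and 1.22 units on the same surfaces. The corneal pair was dim and lower on Myogel by similar amounts, KRT12 with 17.5 units on Myogel and 23.4 units on plastic and KRT3 with 15.9 and 20.8 units on the same surfaces.

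The remaining keratins from 100 units up included 2 that were higher on Myogel by FC 1.2 or more. KRT16, the type I keratin that epithelium makes in wounds and during rapid growth, had 243 units on Myogel and 335 units on plastic, a log2 FC of -0.46 inside its range of -0.69 to 0.59. KRT75, a type II keratin of the companion layer of the hair follicle, had 207 units on Myogel and 162 units on plastic. KRT80, a type II keratin found in many epithelia, had 227 units on Myogel and 182 units on plastic. Their log2 FCs of 0.35 and 0.32 were inside the ranges for their signal. KRT6A, KRT6B, KRT6C and KRT17, the other keratins of the stress type, were not analysed here, since no probe set named for them alone was in the annotation used. In all, 11 keratins of the types listed were missing in this way, the others being hair keratins.

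**Figure D2:**
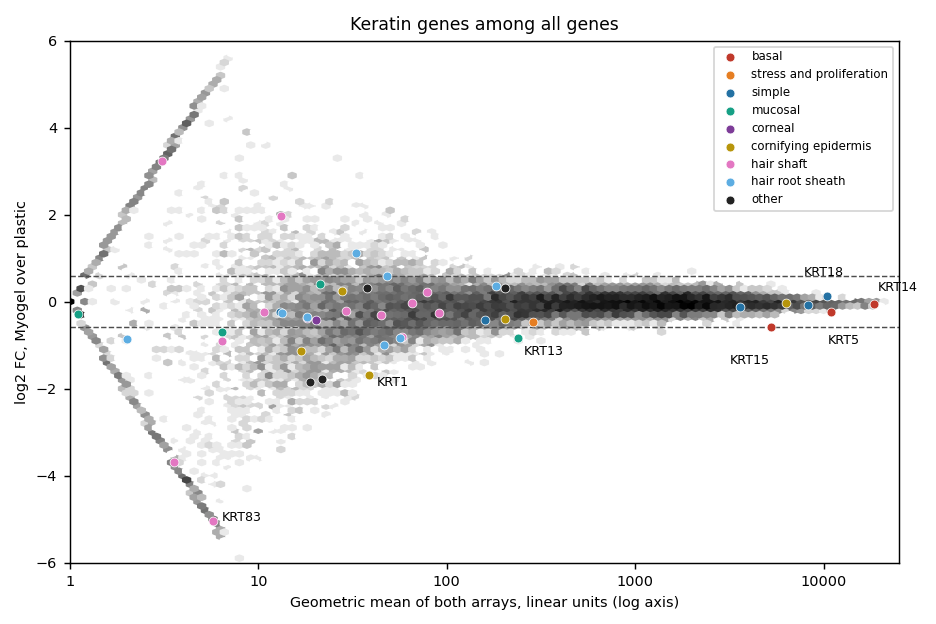
Log2 FC (y axis, positive where Myogel was higher) against mean signal, the geometric mean of the 2 intensities (x axis, log scale), with all genes as grey cells (darker cells hold more genes; genes beyond a log2 FC of -6 or 6 are not shown), the keratins as points coloured by type and dashed lines at FC 1.5. The bright keratins lie inside the dashed lines, KRT15 on the lower one, KRT13 lies below it, and the wide scatter on the left is that of dim probe sets.

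Counted over the whole family, FC 1.5 was passed upward on Myogel by 4 of 44 keratins and downward by 13, and 27 did not pass it. Among all genes 9.71% were higher and 17.5% were lower by the same rule, against 9.09% and 29.5% of the keratins. The keratins had a median log2 FC of -0.28, and all genes had one of -0.069. After quantile normalization the keratin median was -0.074 and that of all genes was 0. After loess centring the keratin median was -0.052 and that of all genes was 0.006. With FC 1.2 or more, 8 keratins (18.2%) were higher and 23 (52.3%) were lower, against 18.1% and 30.8% of all genes. Below 100 units on both arrays lay 31 of the 44 keratins and 8604 of the 19775 genes. The medians and these FC 1.2 shares were not compared with those of dim genes. FC 1.5 was common among dim genes, so the counts are also given by signal. Of the 31 keratins below 100 units on both arrays, 4 were higher and 12 were lower, which is 12.9% and 38.7%, while 19.8% and 35.5% of the 8604 genes below 100 units were higher and lower. Among dim keratins the lower share was thus close to that of dim genes at large, and the higher share was below it. Among the 13 keratins whose higher value reached the median signal, 0 passed FC 1.5 upward and 1 (7.69%), KRT13, passed FC 1.5 downward, against 1.35% and 2.4% of 10200 genes. KRT7 entered this group through its plastic value alone, and a gene that passes through its higher value only is more likely to show a difference. Of the 7 keratins in the top decile, 0 passed FC 1.2 upward and 1, KRT15, passed it downward, against 3.19% and 4.04% of the 1978 genes there, and these 7 were grouped after their values had been seen.

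The 16 dim keratins with FC 1.5 or more came from several types. Lower on Myogel were KRT1 and KRT2 of the epidermis, KRT4 of the mucosa, KRT33A, KRT35, KRT37 and KRT83 of the hair shaft, KRT25, KRT72 and KRT79 of the root sheath and other parts of the follicle, and KRT24 and KRT222. Those given with values here were chosen after their values were seen. Higher on Myogel were KRT84 and KRT85 of the hair shaft and KRT73 and KRT74 of the root sheath. KRT83 and KRT33A were listed at the floor on Myogel, with 32.8 and 12.9 units on plastic, and KRT84 had 9.42 units on Myogel and was listed at the floor on plastic, so that none of these differences has a fixed size. KRT1 was the only one of the 16 outside the range for its signal. That range holds 95% of probe sets by construction, so some genes lie outside it in any case. For KRT222 both probe sets were lower, with 11.8 units on Myogel and 40.5 units on plastic in the brighter and 2.53 and 6.76 units in the dimmer. KRT24 had 9.97 units on Myogel and 36.0 units on plastic, KRT79 had 32.9 and 65.8 units, and KRT85 had 26.3 and 6.67 units on the same surfaces. KRT74, at 1.52-fold with 59.7 units on Myogel and 39.4 units on plastic, lay just inside the threshold, as KRT15 lay just outside it.

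Hair keratins of both kinds went both ways. FC 1.5 was passed upward by 2 and downward by 4 of 12 measured hair shaft keratins, and upward by 2 and downward by 3 of 8 root sheath keratins. These shares, 16.7% and 33.3% for the shaft and 25% and 37.5% for the root sheath, were near the 19.8% and 35.5% of genes below 100 units. The brightest of the hair shaft group were KRT38, with 82.5 units on Myogel and 99.5 units on plastic, and KRT36, with 85.1 units on Myogel and 72.5 units on plastic. KRT31 was nearly equal, with 65.3 units on Myogel and 66.3 units on plastic. KRT32, KRT33B, KRT40, KRT71 and KRT27 were lower on Myogel as deposited, with log2 FCs between -0.36 and -0.21 and values of 50.2 units or less on either surface, but each of them except KRT32 was higher under 2 other ways of processing. KRT23, a type I keratin known from pancreatic and other cancers, had 42.2 units on Myogel and 33.9 units on plastic.

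Partners in a filament differed in log2 FC by little in some pairs and by more in others. Of 12 pairs considered, 8 had both chains measured. In the basal pairs the log2 FC was -0.049 for KRT14 and -0.58 for KRT15 beside -0.23 for KRT5, so that the type I chains lay on either side of their partner. In the simple pairs it was 0.13 for KRT18 and -0.087 for KRT19 beside -0.12 for KRT8. The oral pair had -0.83 for KRT13 and -0.71 for KRT4, and the corneal pair had -0.42 for KRT12 and -0.39 for KRT3, but KRT4, KRT12 and KRT3 were dim. KRT9 and KRT2 had -0.39 and -1.14, with KRT2 dim. The widest gap was in the epidermal pair, with -0.022 for KRT10 and -1.69 for the dim KRT1. By class, FC 1.5 was passed upward by 0 and downward by 7 of 24 type I keratins, and upward by 4 and downward by 6 of 20 type II keratins, against 9.71% of all genes upward and 17.5% downward, or 19.8% and 35.5% of genes below 100 units. The median log2 FC was -0.29 for type I and -0.26 for type II, and the 4 higher type II genes were all dim hair keratins.

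Position in the gene clusters was read from RefSeq, as order only. KRT13, KRT15 and KRT19 are neighbours on chromosome 17, followed by KRT9, KRT14 and KRT16 with no other protein-coding gene between them. Along this stretch the log2 FCs were -0.83, -0.58, -0.087, -0.39, -0.049 and -0.46. KRT13 and KRT15, with the lowest log2 FCs of the 13 brighter keratins, thus lie next to each other, while KRT19 on the other side of KRT15 differed little. On chromosome 12, KRT8 and KRT18 are neighbours at the edge of the cluster, with log2 FCs of -0.12 and 0.13. KRT222, KRT24 and KRT25, dim neighbours at the far end of the chromosome 17 cluster, had log2 FCs of -1.78, -1.85 and -0.83. Other dim neighbours went opposite ways, such as KRT83, KRT85 and KRT84 on chromosome 12, with log2 FCs of -5.03, 1.98 and 3.24. KRT83 and KRT84 were each at the floor on an array. The stretches given here were chosen with the values known. Over the 23 members on chromosome 17 the median was -0.32, and over the 21 members on chromosome 12 it was -0.23.

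Where a gene had more than 1 probe set, the probe sets often went different ways. This was so for 5 of the 9 such genes, KRT4, KRT7, KRT10, KRT73 and KRT74, while all probe sets of KRT19, KRT40, KRT78 and KRT222 went 1 way. The dimmer probe set of KRT40 was at the floor on Myogel and that of KRT78 was at the floor on plastic. For KRT19 the dimmer probe set had 54.6 units on Myogel and 107 units on plastic, a log2 FC of -0.97 against -0.087 in the bright one. For KRT7 the 4 probe sets gave log2 FCs of -0.42, 0.26, -0.15 and 2.14 from the brightest to the dimmest. For KRT73 the log2 FC was 1.12 in the brighter and -0.155 in the dimmer probe set, and for KRT74 it was 0.60 and -0.32. Both KRT73 and KRT74 therefore owed their place among the higher genes to 1 of 2 probe sets of similar signal.

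**Figure D3:**
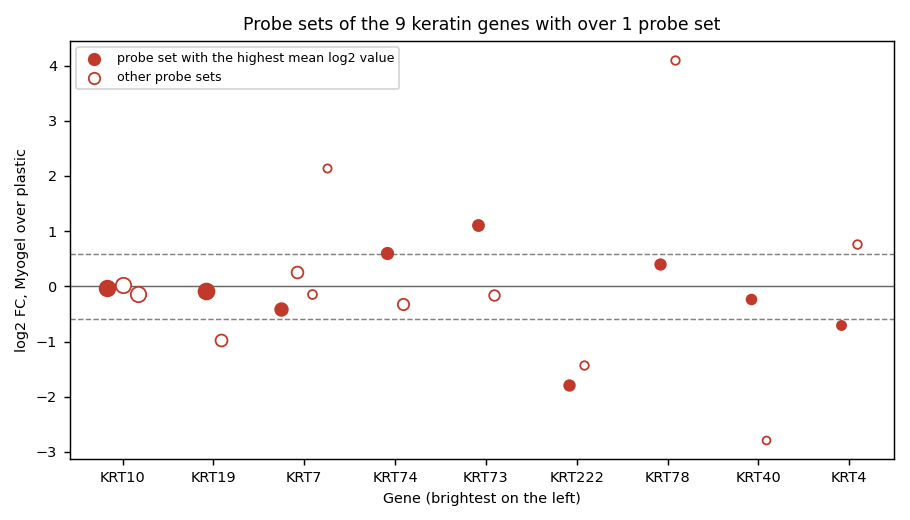
Log2 FC (y axis, positive where Myogel was higher) for each probe set of the 9 keratins with more than 1 (x axis, genes in order of signal), with the probe set used for the gene filled, the others open, larger points for brighter probe sets and dashed lines at FC 1.5. The probe sets of KRT10 lie together near 0, while those of KRT7, KRT73, KRT74 and KRT4 lie on both sides of it.

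In the other parts of the filament system no gene that reached the median signal passed FC 1.5. Few genes of such signal did, 1.35% upward and 2.4% downward of 10200 genes whose higher value reached it. Among 15 other intermediate filament genes it was passed upward by 2 and downward by 2 (13.3% each way, against 9.71% and 17.5% of all genes), all 4 dim. They were GFAP (8.52 units on Myogel, 4.51 on plastic) and NEFH (35.4 and 19.8 units), higher on Myogel, and PRPH (8.62 and 42.95 units) and NEFL (9.41 and 28.4 units), lower, all known from nerve or glia and named after their values were seen. VIM, the vimentin of mesenchymal and many cultured carcinoma cells, was in the top decile of signal and nearly equal on both surfaces, with 6869 units on Myogel and 6856 units on plastic, and LMNA, the nuclear lamin A, had 4763 units on Myogel and 5014 units on plastic. The median log2 FC of these genes was -0.01. Of 14 linkers and modifiers of keratin filaments 1 was higher and 1 was lower (7.14% each way), the dim FLG (5.50 units on Myogel, 1.49 on plastic) and PLEC (4.58 units on Myogel, 80.9 on plastic), again named after their values were seen. The log2 FC of PLEC, -4.14, was outside the range of -2.46 to 2.19 for its signal, and that of FLG was inside its range. Linkers that reached the median signal and passed FC 1.2 were TCHP (637 units on Myogel, 456 on plastic) and FAM83H (1489 and 1225 units), higher on Myogel, and EPPK1 (142 and 173 units), lower, all inside their ranges and named after their values were seen. DSP, the desmoplakin that ties keratins to desmosomes, had 10816 units on Myogel and 11280 units on plastic, and SFN, the 14-3-3 protein that binds keratins, had 16390 units on Myogel and 16249 units on plastic. The median log2 FC of the linkers was -0.01. Of 11 measured epithelial transcription factors that act on keratin genes, 0 had FC 1.5 or more, with a median log2 FC of 0.074. Most of them were bright, and 1.35% and 2.4% of genes that reached the median signal passed FC 1.5 upward and downward. GRHL1 (136 units on Myogel, 184 on plastic) and GRHL3 (109.7 and 133.2 units) were lower by FC 1.2 or more, inside their ranges. KLF5 had 5565 units on Myogel and 5612 units on plastic, and EHF had 5709 units on Myogel and 5594 units on plastic.

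The processing moved some of the brighter keratins more than others. Over the ways of processing that gave a value, the deposited one included, KRT13 passed FC 1.5 in each of 7, with log2 FCs from -0.83 to -0.69. KRT15 had log2 FCs from -0.58 to -0.48 in 8 and did not reach the threshold in any. KRT5 was lower in all 8, from -0.23 to -0.13, and KRT18 was higher in all 7 that gave a value, from 0.13 to 0.24.

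**Figure D4:**
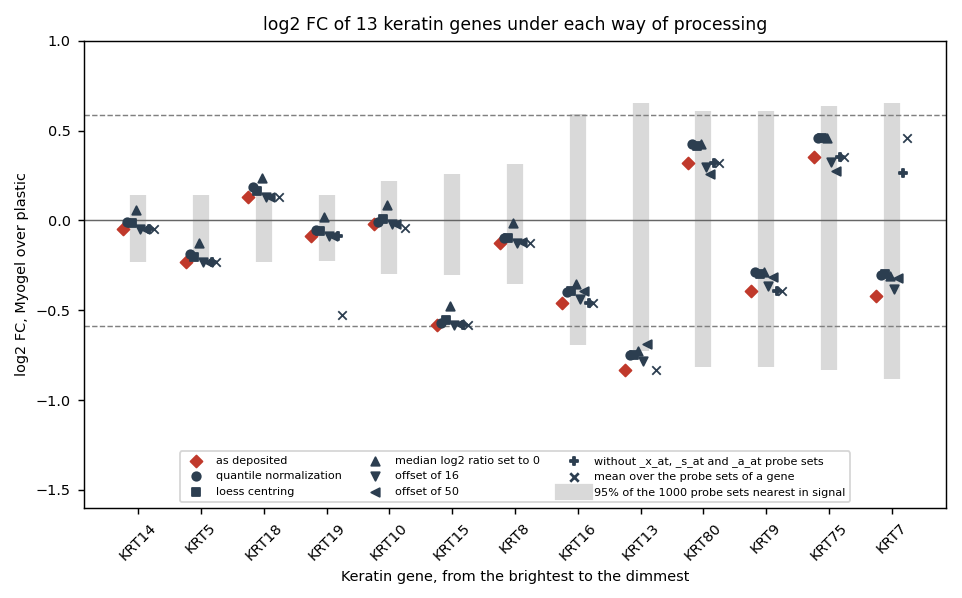
Log2 FC (y axis, positive where Myogel was higher) for the 13 keratins whose higher value reached the median signal (x axis, brightest first), as deposited (red) and under 7 other ways of processing (dark symbols), with grey bars for the 95% range of log2 FC among the 1000 probe sets closest in signal and dashed lines at FC 1.5. KRT15 and KRT13 lie below their grey bars as deposited, KRT5 touches the lower end of its bar from below, and the 10 others lie inside theirs.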

How the data were processed

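HSC-3 cells on Myogel and on plastic were measured with 1 array each, and the titles of the samples gave the surface. For the Myogel sample a treatment label speaks of uncoated plates, against its title and the paper's methods. The intensity values were deposited by the authors, who made them with the dChip software, and the sources used here give neither its version nor the scaling of the arrays. The table has 54675 probe sets, of which 62 are controls. Among the others, 2581 values on Myogel and 2414 on plastic are at the floor of 1. Gene symbols came from the platform annotation and were updated by Entrez identifier through RefSeq (GRCh38.p14), which changed 0 keratin symbols. Of the probe sets, 41091 had 1 symbol, 1801 had several and 11721 are unnamed here. Nothing was rescaled for the values in the text, and no test was made. The keratin genes, their types and the other lists were chosen with earlier results of these data known. Keratins that reached the median signal in at least 1 array were named with values, and the others were to be given by name, count and range. Values of single dim keratins were added after they were seen. In the lists of filament genes, linkers and regulators the 2 brightest genes were named where no bright gene passed FC 1.5. Other genes of these lists, and those named among cell markers and keratin-associated proteins, were chosen after their values were seen. Alternatives were loess centring (span 0.3), quantile normalization, a median log2 ratio set to 0, offsets of 16 and 50, a filter on low signal, leaving out _x_at, _s_at and _a_at probe sets, the mean over probe sets, FC 1.2 and FC 2, and a difference of 100 units. Leaving out genes at the floor was added after the data were seen. The scripts ran on Python 3.11.15 with pandas 2.3.3, numpy 2.4.6, matplotlib 3.10.9 and statsmodels 0.14.6 and were tested on simulated data.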

Additional observations from a re-analysis of the deposited data

How the results depend on the processing

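The count of keratins that were higher on Myogel was 4 as deposited. It was 2 with an offset of 16, 0 with an offset of 50, 0 with the filter on low signal, 0 with a difference of at least 100 units and 8 with FC 1.2. It stayed between 3 and 6 otherwise. The count of lower keratins was 13 as deposited, 3 with an offset of 50, 1 with the filter on low signal (13 genes left), 8 without probe sets that end in _a_at, _s_at or _x_at (35 genes left), 23 with FC 1.2, 7 with FC 2 and 1, KRT13, with a difference of 100 units. The median log2 FC of the keratins was -0.28 as deposited and stayed below 0 throughout, at -0.074 after quantile normalization, -0.052 after loess centring, -0.17 with the median log2 ratio set to 0, -0.16 and -0.091 with offsets of 16 and 50 and -0.12 with the filter. The median log2 FC over all probe sets was -0.11 as deposited, -0.0045 after quantile normalization and -0.0038 after loess centring. Among all genes FC 1.5 was passed upward by 1921 and downward by 3469 as deposited, by 2611 and 2565 after quantile normalization, by 2634 and 2542 after loess centring and by 2229 and 2998 with the median log2 ratio set to 0. KRT4 turned to a log2 FC of 0.035 with the mean over its probe sets. Of the 17 keratins with FC 1.5 or more, KRT1, KRT13 and KRT83 kept it under each scaling, offset and choice of probe sets that gave a value. KRT1 and KRT83 did not pass the filter on low signal or a difference of 100 units, and KRT13 did not reach FC 2. KRT83 was at the floor on Myogel and inside the range for its signal. No paired analysis was possible because each surface has 1 array. Low signal limits the other values, since the SD of the log2 FC was 1.57 among genes below 100 units and 0.15 in the top decile.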

Other observations

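Keratin-associated proteins embed the keratins of the hair shaft. The 34 genes whose symbols start with KRTAP, 1 of them an antisense RNA, were mostly dim as well. FC 1.5 was passed upward by 8 and downward by 11 of them, while 19.8% and 35.5% of all genes below 100 units passed it. Their median log2 FC was -0.16. The brightest was KRTAP1-3, with 490 units on Myogel and 483 units on plastic. KRTAP1-1 had 56.7 units on Myogel and 13.25 units on plastic and KRTAP9-3 had 10.0 units on Myogel and 67.4 units on plastic, both outside the range for their signal and chosen after their values were seen. The hair shaft keratin KRT34 shares its probe set with another locus and was not among the 44 genes. That probe set had 9.18 units on Myogel and 7.17 units on plastic.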
